A study of Homo sapiens with 2 samples.

Results

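The genes described here are the well-counted protein-coding genes at the start of human chromosome 1, 192 of the 63494 features in the count tables. They are protein-coding rows of the study's gene table that lie in the first stretch of chromosome 1 of the CHM13 v1.1 assembly, where the members start between bases 353571 and 75622859. They were chosen by the sum of their counts over both libraries, which had to be 1000 or more, so that sum is not a finding. The stretch holds 800 protein-coding rows, of which another 425 had at least 100 counts and 183 had fewer, among them 18 with 0 counts in both libraries. Just inside the limit lay CLSPN with 1000 counts and RERE with 1001, and just outside it PPIE with 978 and EPB41 with 976. Of the member symbols, 181 are RefSeq symbols and the other 11 are MSTRG models, which carry no gene symbol.

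RNA was measured by PAR-CLIP in HEK293T, an established human embryonic kidney cell line. Cells that, per the labels, stably expressed SFB-Ku80 (Ku80 with an SBP tag and tandem FLAG tags) and control cells carrying the SFB empty vector took up 0.1 mM 6-thioguanosine (6SG) overnight and received 0.4 J/cm2 of UV at 365 nm, and the RNA was isolated over streptavidin resin and then Flag resin. The aim was to find the RNA associated with the Ku complex. There was 1 library per condition, so no comparison of the libraries has a replicate check or a p-value. Whether a line came from 1 clone is not given in the sources used here, and the tagged protein was expressed from a construct beside the cells' own Ku80. The libraries also differ in how much of them was usable: 20.3% of the 29863974 read pairs of SFB empty vector and 6.51% of the 22173753 of SFB-Ku80 were uniquely mapped and assigned to a feature, while 21.5% and 47.1% were unmapped. Their totals on features were 19775629 and 17892815 counts.

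Ku70 and Ku80 form a ring that binds DNA ends and recruits the kinase DNA-PKcs, and Ku also binds structured RNA. In PAR-CLIP the photoreactive nucleoside lets UV light link a protein to the RNA it touches, and the vector library shows which RNA comes through the purification without the tagged protein. The genes described share a position and a depth of counting rather than a function, and they span housekeeping genes as well as genes known from a single tissue. The lists used hold no gene of the stretch that defines HEK293T. Of 15 blood and immune markers on the stretch none was a member, and the highest, TAL1, had 251 counts with the empty vector and 183 with Ku80.

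The members took a far smaller share of the SFB-Ku80 library. They held 548217 of the counts of SFB empty vector, which is 2.77% (95% Wilson interval 2.76 to 2.78%), and 94824 of the counts of SFB-Ku80, which is 0.530% (0.527 to 0.533%). In uniquely mapped pairs the shares were 3.07% (3.06 to 3.09%) and 1.82% (1.80 to 1.85%). These intervals cover counting error only and are too narrow, because both reads of a pair and every place of a multimapping read were counted. A member had a median of 1452 counts in SFB empty vector, from 74 to 112817, and a median of 319.5 in SFB-Ku80, from 12 to 8067. CCDC17 alone made up 20.6% of the members' counts in SFB empty vector, and without it the share there was 2.20%. MMEL1 made up 8.51% of them in SFB-Ku80, and without it the share there was 0.485%.

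For each gene the log2 ratio of SFB-Ku80 to SFB empty vector, with 1 count added to each, was set against the median of the 4090 features of the genome that had 1000 or more counts. This relative log2 ratio does not depend on a scaling total, and 0 is the place of the median feature. The median feature itself was at -1.93 when scaled by all counts on features, at -1.18 with edgeR's TMM factors and at -1.15 with DESeq2's size factors. Here a member is called above or below the median feature when it lies at least 1 log2 unit, a factor of 2, from it. Of the 192 members, 30 (15.6%) were above and 57 (29.7%) below, where the background over all 4090 features was 29.4% above and 24.7% below. Counted from 0 of the scale instead of from the median feature, the split was 2 above and 160 below when scaled by all counts. With TMM or with size factors it was 6 above and 122 below. The median feature itself is called below on each of these scales, and the split of all features on them is not given here. The members had a median relative log2 ratio of -0.33 with quartiles of -1.19 and 0.60, and those of all features were -0.99 and 1.27. The raw counts of SFB-Ku80 exceeded those of the other library for 7 members (3.65%, background 13%), among them MMEL1, TINAGL1, HSPB7, AJAP1, ESPN and PLEKHG5.

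The limit of 1000 counts shapes these numbers. SFB empty vector alone took 129 members over it, SFB-Ku80 alone took 4, each library by itself would have taken 15, and 44 reached it only as a sum. All 57 members below the median feature were among the 129, and of the 30 above it, 3 were among the 129, 4 among the 4, 4 among the 15 and 19 among the 44. The direction of those that passed through 1 library is therefore partly set by the limit, for the members and the background alike. Across the members, Spearman's correlation between the counts of both libraries was 0.16 (n = 192 genes, which share the libraries and their depth and are not replicates).

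**Figure D1:**
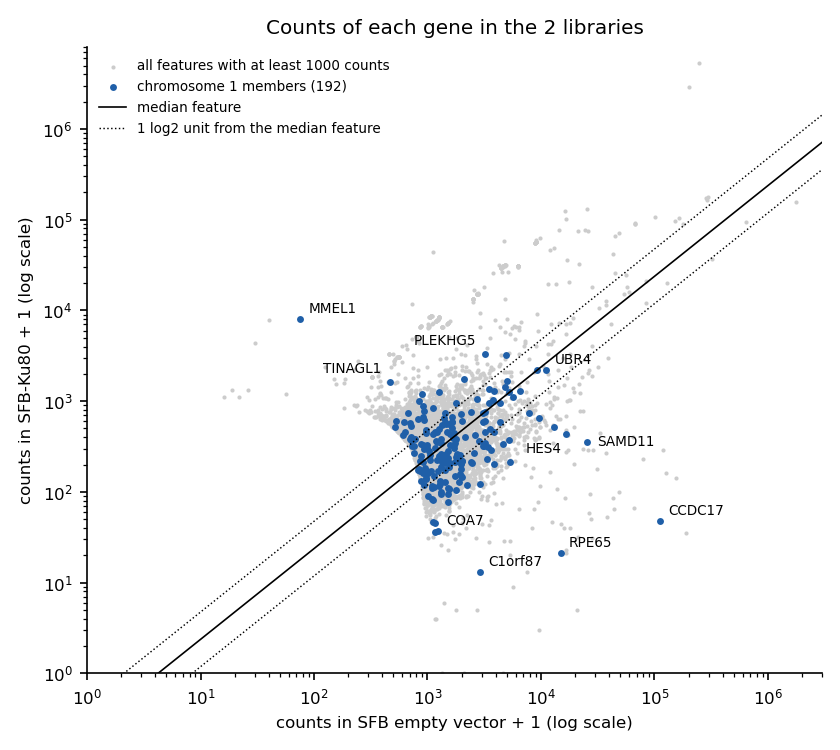
Counts of each gene plus 1 in SFB empty vector (x axis) and SFB-Ku80 (y axis), both on log scales, with the 192 members in blue over all 4090 features with 1000 or more counts in grey, the median feature as a solid line and 1 log2 unit on either side as dotted lines. Most members lie close to the median line, MMEL1 stands far above it and CCDC17, RPE65 and C1orf87 far below it.

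The members were next grouped by gene lists, whose counts can be read against the 24.7% of all features that were below and the 29.4% that were above the median feature in counts, and the 20.5% and 25.6% in unique pairs. Of the 15 splicing factors among the members, 8 were below, 0 were above, and the median relative log2 ratio was -1.14. The lowest was CCNL2, a cyclin found with splicing factors, with 9603 counts with the empty vector and 645 with SFB-Ku80, a relative log2 ratio of -1.82. DNAJC8 (-1.78), a chaperone partner of the spliceosome, and the SR protein SRSF4 (-1.40) were also below. SFPQ, an abundant nuclear RNA-binding protein of paraspeckles, was the one splicing factor with a value over 0, with 3799 and 1028 counts and 0.19. In unique pairs the median of the list was -0.65 and 5 of the 15 were below.

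RPL11, a protein of the large ribosomal subunit that also binds MDM2, had 3578 and 487 counts and a relative log2 ratio of -0.80. RPL22, another protein of that subunit, had 1332 and 213 counts and a value of -0.56. Both lay within 1 log2 unit of the median feature, in unique pairs as well, where RPL11 had -0.20 and RPL22 -0.99.

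Factors of ribosome assembly had no member above the median feature. Of the 4, MRTO4, which takes part in assembly of the large subunit, had 1308 and 99 counts and a value of -1.63. NOC2L, also known as a regulator of p53, had -1.07, the exosome nuclease EXOSC10 had -0.40 and the nucleolar GTPase GNL2 had -0.27. In unique pairs only MRTO4 of the 4 stayed below, at -1.17. Of the 10 genes of translation and mRNA control, 3 were below and 0 above, with a median of -0.61. The lowest was the initiation factor subunit EIF3I, with 1548 and 106 counts and -1.78, followed by the mRNA-binding protein SERBP1 at -1.34 and the m6A reader YTHDF2 at -1.13. NSUN4, a methyltransferase of the mitochondrial ribosome, was the highest with 1418 and 581 counts and 0.79, next to the cold shock domain protein YBX1 at 0.73. Both lay under 0 in unique pairs, NSUN4 at -0.28 and YBX1 at -0.23. In those pairs 1 of the 10 was below and 0 above, with a median of -0.31.

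Of 10 mitochondrial members, 5 were below and 0 above, with a median of -0.97 in counts and -0.96 in unique pairs. COA7, needed for assembly of cytochrome c oxidase, was the lowest, and ATP5IF1 (-1.71), the inhibitor of the ATP synthase, and UQCRH (-1.42), a subunit of complex III, followed. ATAD3A, a protein of the mitochondrial inner membrane, was the highest at 0.40, but in unique pairs it stood at -1.37. Of 8 members for cell division, 4 were below and 1 above, with a median of -1.16 in counts, and 2 were below and 1 above in unique pairs, with a median of -0.76. The centrosomal protein CEP85 had 3867 and 202 counts (-2.18), the tubulin-binding protein STMN1 1896 and 129 (-1.79) and the mitotic activator CDC20 1924 and 155 (-1.55). CDCA8, a subunit of the chromosomal passenger complex, was the member above in counts, at 1.09, but had -0.19 in unique pairs. There the member above was MAD2L2, at 1.08. In DNA replication and repair, 2 of 6 were below and 0 above in counts, with a median of -0.80. The lowest there was DMAP1 at -1.42 and the highest the deubiquitinase USP1 at 0.63. In unique pairs 1 was below and 1, MAD2L2, above, with a median of -0.32.

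Of 18 chromatin and transcription genes, 4 were below and 3 above in counts, with a median of -0.22. In unique pairs 4 were below and 4 above, with a median of 0.05. The nucleosome-binding protein HMGN2 had 5326 and 213 counts (-2.56) and the histone deacetylase HDAC1 5241 and 372 (-1.74). Above in counts were SKI, a corepressor of TGF-beta signalling, with 1269 and 1245 counts (2.05), the transcription factor NFIA with 826 and 634 (1.69) and the Polycomb group protein SCMH1 with 4899 and 3218 (1.47). CHD5 was above in unique pairs only, at 1.68, with 0.14 in counts. Of 9 metabolic enzymes, 4 were below and 1 above in counts, with a median of -0.24, and 5 were below and 1 above in unique pairs, with a median of -1.04. The heme synthesis enzyme UROD had 2216 and 117 counts (-2.16), the glycolytic enzyme ENO1 4326 and 955 (-0.10), and phosphoglucomutase PGM1 628 and 456 (1.61).

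In the cytoskeleton and adhesion list, 2 of 10 members were above and 1 below, with a median of 0.20 in counts. With the limit lowered to 100 counts the list held 19 genes and its median was -0.16. In unique pairs 1 of the 10 was above and 1 below, with a median of 0.27. MACF1, a giant linker of actin and microtubules, had 1767 and 942 counts (1.17), the receptor phosphatase PTPRF had 1.14, and the basement membrane proteoglycan HSPG2 had 9208 and 2196 (0.01). In the ubiquitin system, 2 of 12 were above and 1 below in counts, with a median of -0.13. In unique pairs 3 were above and 1 below, with a median of -0.0025. DDI2, a protease that works with the proteasome, had 618 and 586 counts (2.00), UBR4, a large ubiquitin ligase, had 11127 and 2184 (-0.27), and FBXO44 had 1149 and 113 (-1.26). The lists share some genes and were not tested against each other.

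**Figure D2:**
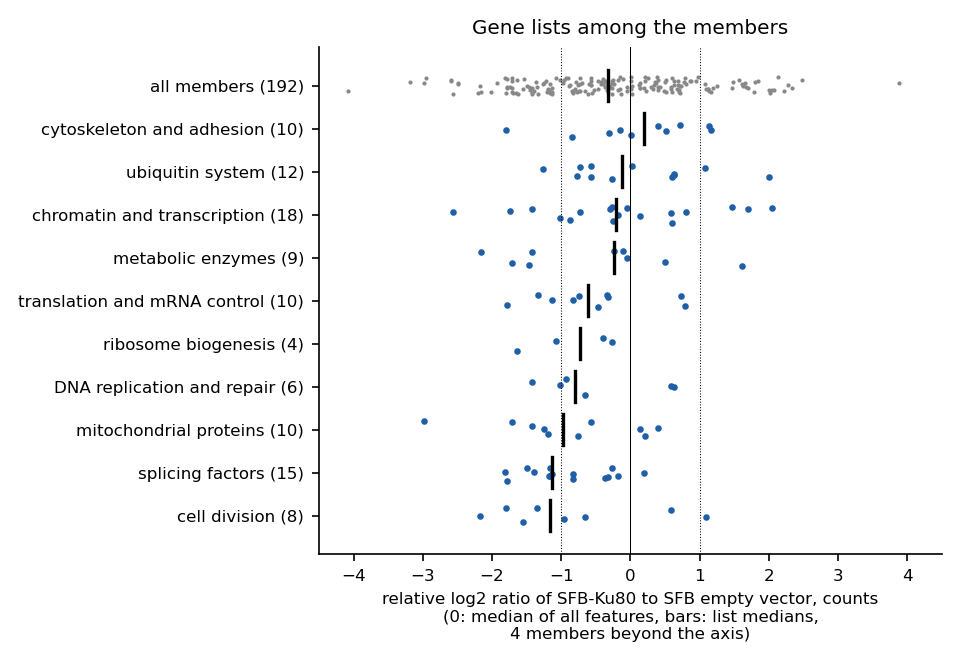
Relative log2 ratio in counts (x axis, 0 at the median of all features) for the members of each gene list (rows, with the number of members), with a point per gene, a bar at the median of the list and dotted lines 1 unit from 0. The medians run from -1.16 for cell division to 0.20 for cytoskeleton and adhesion, and -0.33 is that of all members; 4 members lie beyond the axis.

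The groups also differed in the exonic length of their genes, and the ratio went with length. Split at 4455 and 8087 exonic bases, the 64 shortest members had a median relative log2 ratio of -1.05, the middle 64 had -0.41 and the longest 64 had 0.13. Below the median feature were 32 of the shortest, 20 of the middle and 5 of the longest, and above it were 7, 11 and 12. Over all 4090 features the same cuts put 522 of 1236, 374 of 1401 and 114 of 1453 below, and 312, 321 and 571 above. Their medians were -0.73, -0.28 and 0.60, so the order by length was also that of the background. In unique pairs the medians of the length groups were -0.90, -0.12 and 0.15. Spearman's correlation between ratio and exonic length was 0.41 over the members (n = 192 genes of the same libraries).

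Among the longest were NFIA with 55899 exonic bases, MACF1 with 44119 and UBR4 with 24661. The list medians follow this order only in part. The mitochondrial members had a median length of 3746.5 bases and the members of the cytoskeleton and adhesion list 10828.5. The splicing factors had a median length of 6731 bases and a median ratio of -1.14, where the middle length group of the members, at about that length, had -0.41. Leaving out members with over 5 counts per unique pair and those read mainly on the other strand, both described further on, the length groups had medians of -1.26 (45 genes), -0.68 (50 genes) and -0.27 (43 genes). The part that length has in the list medians was not tested.

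**Figure D3:**
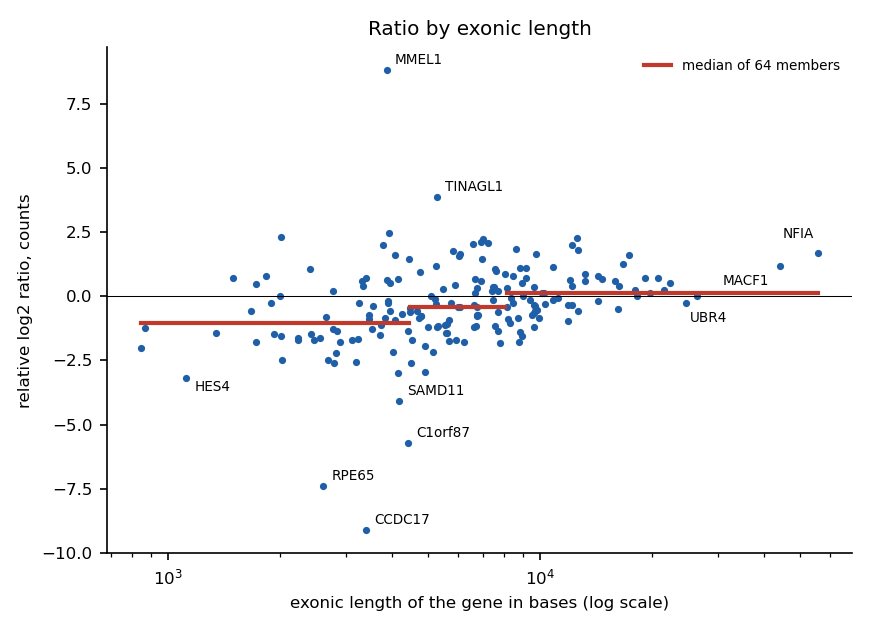
Relative log2 ratio in counts (y axis) of the 192 members by the exonic length of the gene in bases (x axis, log scale), with red bars at the medians of the shortest, middle and longest 64 members. The medians are -1.05, -0.41 and 0.13 in order of length, and the 5 genes farthest from 0 (CCDC17, MMEL1, RPE65, C1orf87 and SAMD11) have 2605 to 4418 exonic bases.

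Farthest above the median feature, and well apart from the genes next in rank, were MMEL1 and TINAGL1. MMEL1, an endopeptidase related to neprilysin on the minus strand between bases 2032284 and 2074662, had 74 counts with the empty vector and 8067 with SFB-Ku80, a relative log2 ratio of 8.82 (95% counting interval 8.50 to 9.15). Its unique pairs were only 4 and 18, which gave 4.60 (3.18 to 6.02). The counting intervals of ratios in counts treat every count as independent and are too narrow, as are those of the shares. The 448 counts per unique pair of MMEL1 in SFB-Ku80 compare with a median of 2.82 over the members, so nearly all of its counts did not come from pairs that STAR assigned to it uniquely, and the gene of origin is uncertain. Scaled by length, as counts per kilobase of exon and 1000000 counts on features, MMEL1 was the highest member in SFB-Ku80 with 116.6, against 0.968 in SFB empty vector.

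TINAGL1, a secreted glycoprotein of the extracellular matrix on the plus strand between bases 31434170 and 31445387, had 467 and 1633 counts and 61 and 333 unique pairs. Its relative log2 ratio was 3.88 in counts and 5.11 in unique pairs, the highest of all members in pairs. It was thus far above the median feature in both measures.

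The other members in the highest 10 lay between 2.01 and 2.48. HSPB7, a small heat shock protein of muscle, had 900 and 1189 counts and AJAP1, a protein of cell junctions, 528 and 604. The actin-bundling protein ESPN had 671 and 741, the guanine nucleotide exchange factor PLEKHG5 3208 and 3345, and RIMS3, a presynaptic protein, 520 and 518. SKI and the galactosyltransferase B4GALT2, with 919 and 880 counts, were also among the 10. All of them were above the median feature in unique pairs too, from 2.06 for SKI to 3.42 for ESPN, although HSPB7 had only 27 and 44 such pairs. Beyond 2 log2 units, 10 members (5.21%) were above, where the background was 13.8%.

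At the other end, a few genes were almost restricted to SFB empty vector. CCDC17, a coiled-coil protein on the minus strand between bases 45492399 and 45496412, had 112817 counts with the empty vector and 47 with SFB-Ku80, a relative log2 ratio of -9.12 (-9.53 to -8.71). In unique pairs it had 13065 and 5, which gave -8.41. RPE65, the isomerase of the visual cycle in the retinal pigment epithelium, on the minus strand between bases 68306207 and 68327339, had 14906 and 20 counts (-7.40) and 2997 and 4 pairs (-6.55). On the length-scaled level CCDC17 had 1682 in SFB empty vector, the highest of all members, and RPE65 had 289.3.

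C1orf87 had 2901 and 12 counts and a relative log2 ratio of -5.73, but only 82 and 5 unique pairs, and its value in pairs was -1.11. SAMD11, a sterile alpha motif protein whose exons overlap those of NOC2L on the other strand, had 25543 and 357 counts (-4.08) and 8629 and 70 pairs (-4.25). HES4, a transcriptional repressor of the family of Notch targets, had 16683 and 434 counts (-3.19), and with a length-scaled level of 754.6 it was second to CCDC17 in SFB empty vector. Also among the lowest 10 were COA7 with 1226 and 36 counts (-2.98), the matrix proteoglycan PODN with 1173 and 35 (-2.95), the zinc-binding protein CZIB with 1165 and 45 (-2.59) and HMGN2. At least 2 log2 units below the median feature were 16 members (8.33%), with a background of 7.09%.

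Counts and uniquely mapped pairs gave like values for most members. Of the 192, 185 had 100 or more unique pairs over both libraries, and of these 31 (16.8%) were above and 44 (23.8%) below the median of the 3732 features with that depth, where the background was 25.6% above and 20.5% below. Called in both measures were 21 of the 185 above (background 20.3%) and 40 below (background 17.7%), and none of the 192 was called in opposite directions. A member had a median of 608.5 unique pairs in SFB empty vector, from 4 to 13065, and of 89 in SFB-Ku80, from 3 to 1932, so values in pairs are less precise. The pairs and counts come from the same reads and are not independent.

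A difference of more than 1 log2 unit between both measures was found for 19 members, 8 of them higher in counts. After MMEL1, the widest were LRRC41, a partner of a ubiquitin ligase, with 1.84 in counts and -0.72 in pairs and ATAD3A with 0.40 and -1.37. CDCA8 had 1.09 in counts and -0.19 in pairs. For these the SFB-Ku80 library had many counts per unique pair, 24.5 for LRRC41 and 22.1 for ATAD3A against 2.66 and 4.18 in SFB empty vector. ATAD3A has a near-identical neighbour, ATAD3B, which had 0.21 in counts and -0.03 in pairs, and reads shared by both cannot be placed.

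In the other direction lay C1orf87, PODN (-2.95 in counts and 0.58 in pairs), the membrane protein CD164L2 (0.02 and 2.86), the ephrin receptor EPHA10 (0.32 and 2.51) and COA7 (-2.98 and -1.13). Here the surplus of counts per pair was in SFB empty vector, where CD164L2 had 110 counts per pair and PODN 40.4. Over all members, 23 had over 5 counts per unique pair in SFB empty vector (12%, background 15.2%) and 40 in SFB-Ku80 (20.8%, background 25.8%). Without the 45 members that had them in either library, 16 of 147 members were above the median feature and 49 below.

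**Figure D4:**
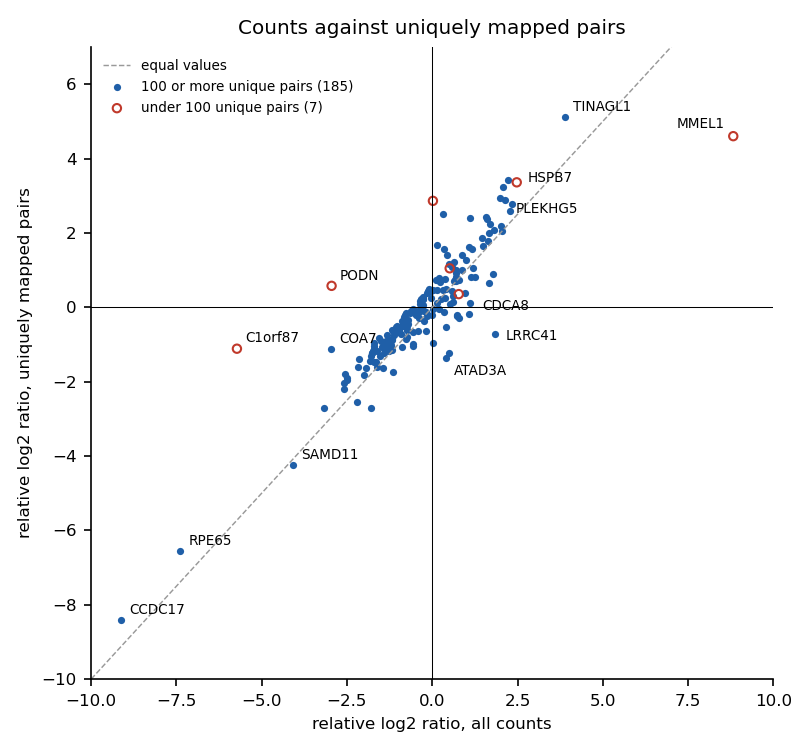
Relative log2 ratio in counts (x axis) and in uniquely mapped pairs (y axis) for each of the 192 members, with the 7 that had under 100 unique pairs as open red circles and a dashed line where both are equal. Most genes lie along the line, MMEL1 lies far below it at 8.82 and 4.60, and C1orf87 and PODN lie above it.

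The strand of the reads set the genes at both ends apart from the rest. STAR's table gives the unique pairs of each gene in a first and a second stranded column, and over the 191 members with at least 20 such pairs in SFB empty vector a median of 82.6% lay in the second column, so this column was the usual one for pairs from a gene's own strand. In SFB-Ku80 the median was 80.7% over 182 members. The first column led, with the second under 50%, in 18 members in SFB empty vector (9.42%, background 9.62%) and in 21 in SFB-Ku80 (11.5%, background 15.3%), and in both libraries in 10 of the 182 with 20 pairs in each (5.49%, background 7.23%). Of those 18, 11 were above the median feature and 4 below, with a median relative log2 ratio of 1.64, while of the 173 others 19 were above and 53 below, with a median of -0.40. The same split over all features gave medians of 1.43 and -0.22, so it was not particular to the members.

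The 4 lowest members were all of this kind. CCDC17 had 12160 first-column and 905 second-column pairs in SFB empty vector, so 6.93% lay in the second column. In RPE65 the numbers were 2729 and 268 (8.94%), in SAMD11 7990 and 855 (9.67%) and in C1orf87 79 and 3 (3.66%). Most unique pairs of these genes in SFB empty vector thus lay on the strand opposite to the one usual for the other members. The strand of their other counted reads is not known, and these were many, with 35.4 counts per unique pair for C1orf87. CCDC17, RPE65 and C1orf87 have no exon overlapping another annotated feature, while SAMD11 overlaps NOC2L, whose own counts were 1948 and 219. In the second column alone CCDC17 had a relative log2 ratio of -5.45, RPE65 -4.28 and SAMD11 -1.34, the first and second of these with only 2 pairs and 1 pair in SFB-Ku80.

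At the upper end the first column led for 7 of the highest 10 members in SFB empty vector, among them MMEL1, TINAGL1, HSPB7, AJAP1, PLEKHG5 and RIMS3. In SFB-Ku80 the second column led for MMEL1, with 6 first-column and 27 second-column pairs (81.8%) after 12 and 10 in SFB empty vector, and for AJAP1, with 57.3%. MMEL1 had only 4 unstranded pairs with the empty vector and 18 with Ku80, fewer than in its stranded columns. Its exons overlap those of PRXL2B on the opposite strand, where unstranded pairs were not assigned. With so few pairs, no switch of strand can be read from MMEL1. PLEKHG5 had 1420 first-column and 262 second-column pairs in SFB empty vector and 1827 and 107 in SFB-Ku80. TINAGL1 had 50 and 11, and 288 and 46. In the second column alone PLEKHG5 was at 1.51 and TINAGL1 at 4.76, so both stayed above the median feature. PGM1 and RAVER2, a relative of the splicing regulator RAVER1, were read mainly on the first column as well and have exons that overlap those of a neighbour on the opposite strand, ITGB3BP and JAK1. Of the 18 genes, 7 have such an overlap and 11 have none.

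Without the 18 genes, 19 of 174 members were above the median feature and 53 were below. The counts in the main comparison took no account of strand, so reads from a gene and from a transcript opposite to it cannot be told apart there. Whether unannotated transcripts gave these reads was not tested.

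**Figure D5:**
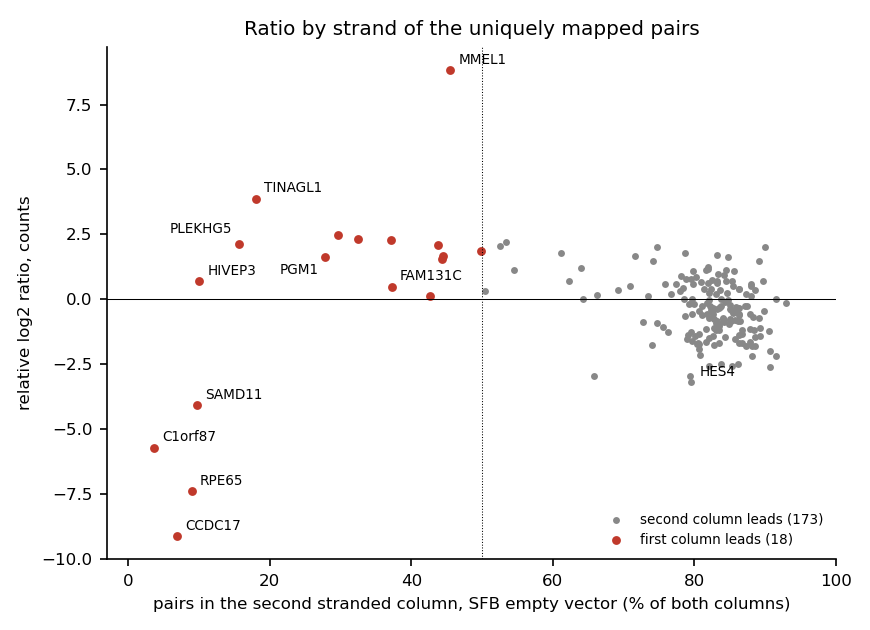
Relative log2 ratio in counts (y axis) by the share of uniquely mapped pairs in the second stranded column in SFB empty vector (x axis, percent of both columns) for the 191 members with at least 20 such pairs, with the 18 led by the first column in red. Grey points gather around 80 to 90%, and the red points split into a group above 0 and the 4 genes from SAMD11 at -4.08 down to CCDC17 at -9.12.

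Some members and the small RNAs they enclose had different values. Small RNA features lay within 41 members, which had a median relative log2 ratio of -0.33, against -0.32 for the 151 others. RCC1, the chromatin-bound exchange factor of the GTPase Ran, had 1750 counts with the empty vector and 347 with SFB-Ku80 (-0.26), while SNORA73B within the bounds of the same gene had 43306 and 42383 (2.04). PABPC4, a cytoplasmic poly(A)-binding protein, was at -0.75 and SNORA55 within it, with 232 and 51 counts, at -0.09. In both cases the enclosed small RNA had the higher value also in unique pairs, with 2.59 and 0.72 against -0.10 and -0.51. Exons of the noncoding gene SNHG3, on the same strand with 2565 and 281 counts (-1.11), overlap those of RCC1. Enclosure by itself therefore does not show which gene is the host of SNORA73B. CROCC, a centrosomal rootlet protein at 0.51, encloses the U1 genes RNU1-4 at 1.43 and RNU1-2 at 2.13, whose counts cannot be placed among their copies, since RNU1-4 had 163533 counts but 142 unique pairs in SFB empty vector.

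The close relatives ATAD3A and ATAD3B had like values in counts (0.40 and 0.21) and unlike ones in unique pairs (-1.37 and -0.03). In a further family SLC35E2A had -0.60 in counts and SLC35E2B had -1.79, with -0.12 and -2.71 in unique pairs. Reads shared by these 2 are equally uncertain.

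Exons of 88 members overlap those of another feature, and reads in such an overlap were not assigned in the counts or the unstranded pairs. The stranded columns can hold more pairs. In SFB empty vector LRRC41, whose exons overlap those of RAD54L, had 346 unstranded pairs, but 310 in the first column and 308 in the second. The 88 members had a median of -0.56 and the 104 others -0.21. Along the stretch the medians by 10 Mb lay between -0.69, for the 34 members that start from 20 to 30 Mb, and 0.29, for the 10 from 60 to 70 Mb, apart from -1.18 for the 5 from 70 Mb on. Among the long noncoding RNA genes of the same stretch only 7 reached 1000 counts, with a median of 1.53, 4 above the median feature and 3 below. The 2 snoRNA host genes among them, SNHG3 at -1.11 and SNHG12 at -1.53, lay near the median of the splicing factors.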

How the data were processed

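PAR-CLIP RNA from SFB-Ku80 and SFB empty vector cells was analysed as 1 library each. Per the labels the authors used STAR 2.7.6a and featureCounts 2.0.2 on the CHM13 assembly, and the file headers name version 1.1 of the draft annotation, paired reads that map at both ends, fragments of 18 bases or more, multimapping reads counted and no strand option. The deposited counts are raw, and the authors also deposited STAR's counts of unique pairs, unstranded and by strand. Their rDNA bins were not used.

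Gene names and biotypes came from the paper's supplementary table. The relative log2 ratio used a pseudocount of 1 and the median of all features with 1000 or more counts, or, for pairs, also 100 or more unique pairs. No test was run. Shares have 95% Wilson intervals and ratios a log-normal counting interval, and both cover counting error only. Scaling alternatives used edgeR 4.0.16 and DESeq2 1.42.0, and figures and tables Python 3.11.15. The ratio script was checked on simulated data.

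Members and gene lists were chosen with earlier results of these data known. Named are the 10 highest and 10 lowest members, the 5 with the most counts per library, the 5 with the widest gap between counts and pairs each way, the ends of each list and the 2 on each side of the limit. Other genes named in lists, as neighbours or for strand were chosen after their values were seen. Some named items are not reported here.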

Additional observations from a re-analysis of the deposited data

How the results depend on the processing

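No paired analysis was possible because only 1 library stands for each condition. For the 30 members above and the 57 below the median feature, a limit of 5000 counts gave 3 and 9 of 21 genes, and a limit of 100 counts 146 and 174 of 617. Scaling by all counts without centring gave 2 and 160 with a median of -2.26, TMM 6 and 122 with -1.50, and size factors 6 and 122 with -1.48. These scalings count from 0 of each scale, where the median feature itself lay at -1.93, -1.18 and -1.15. The same calls over all features are not given for these limits and scalings. The second stranded column gave 36 below. Without members whose exons overlap another feature, 16 of 104 were above and 29 below. After seeing the data, 2 more settings were added: without members over 5 counts per unique pair 16 were above, and without those led by the first stranded column 19. These counts moved partly because fewer or more genes entered, and otherwise the cause was not tested. The median of the splicing factors was -1.47 over 24 genes at the limit of 100 counts. The other settings moved the counts of calls by less than 1.5 times. Scalings aside, the members' median ran from -0.56, without members over 5 counts per unique pair, to -0.14 in the second stranded column. Some list medians moved more, and that of the metabolic enzymes was -0.24 in counts and -1.04 in unique pairs. For chromatin and transcription it was -0.22 in counts, -0.71 at the limit of 100 counts and 0.05 in unique pairs.

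The members' share was 2.86% and 0.653% without features of 45S length, 3.07% and 1.82% in unique pairs, 2.20% for SFB empty vector without CCDC17 and 0.485% for SFB-Ku80 without MMEL1, the last pair of settings added after seeing the data. LRRC41 turned to -0.72 in unstranded pairs, -1.75 in the first and -0.48 in the second column. CDCA8 turned to -0.19, -0.070 and -0.15, and PODN to 0.58, 0.87 and 0.31. C1orf87 came out at 0.79 in the second column from 3 and 0 pairs, a value set by the pseudocount and the centring that shows no reversal. With a median of 89 unique pairs in SFB-Ku80, values in pairs for a single gene are the least precise.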
